A study of Homo sapiens with 24 samples.

Results

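The genes described here encode core and regulatory proteins of pre-mRNA splicing. They were chosen by symbol: the LSM family, every SNRP gene, the SF3A and SF3B subunits, the SRSF family, every HNRNP gene, the numbered PRPF genes, and the helicase genes DDX39A and DDX39B. The rule gave 91 of the 26475 genes in the files, and 2 further symbols that hold a hyphen were left out. By class there were 29 HNRNP, 13 SNRP, 13 LSM, 13 PRPF, 12 SRSF, 9 SF3 and 2 DDX39 genes. The match includes 5 transcribed pseudogenes. LSM4 and DDX39A were singled out for this set because both fall consistently in these libraries, so their falls against the control are given as values without a test.

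RNA-seq was performed in metastatic derivatives of 2 VHL-mutant clear cell renal cell carcinoma (ccRCC) lines. They were subline M1A of 786-O, the only 786-O derivative in these libraries, which is called 786-O-derived here and stands under its full label name in the figures, and OS-LM1, from OS-RC2. The parental lines were not analysed here. In each line, 4 libraries carried shPAX8-1 and 4 carried shPAX8-2, a pair of RNAi constructs against PAX8, a renal lineage transcription factor, and 4 carried sgNTC18, a non-targeting CRISPR guide. That makes 24 libraries from cells cultured without any other labelled treatment. The comparison with sgNTC18 therefore sets an RNAi construct against a CRISPR construct. The study's own RNAi control was not used here, so PAX8 depletion, the kind of construct and any separate handling of the cells cannot be told apart in it. The labels do not say whether the 4 replicates of a group came from separate cultures, so p-values measure only the spread between these libraries, which may be technical.

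Splicing removes introns through small nuclear ribonucleoproteins (snRNPs), each a U-rich small nuclear RNA with its proteins. A ring of Sm proteins closes around most of these RNAs, and a ring of LSM proteins binds the end of U6. The SF3A and SF3B complexes belong to the U2 snRNP and hold it on the branch site, and several PRPF proteins join U4, U5 and U6 into the tri-snRNP. SR proteins (SRSF genes) mostly promote the use of an exon, whereas hnRNPs coat nascent RNA and often oppose it. DDX39A and DDX39B are paralogous RNA helicases of splicing and mRNA export.

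The sequences that define the experiment are the RNAi guides, each 22 bases long and printed from 5′ to 3′ with the seed (bases 2 to 8) in capitals. The constructs differ in their seeds.
shPAX8-1: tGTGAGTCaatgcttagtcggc
shPAX8-2: tAGAGTTGtgttaataatggag

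Promoters were examined from 250 bases before to 50 bases after each RefSeq transcript start on GRCh38.p14 (300 bases), because several members moved together. All 91 members matched a RefSeq gene and 75 of them had 101 promoters in the table used. Each was searched on both strands for CCAAT, for CACGTG (an E-box, read by MYC-type factors) and for CCGGAAG (a core read by ETS-type factors). These 3 motifs cannot overlap in full. CCGGAAG was present in at least 1 promoter of 24 of 75 members (32.0%) against 12.2% of all 27305 genes in the table, and per promoter in 26.7% of members' promoters against 10.3% of all. It was present for 6 of 8 SF3 genes and 7 of 11 SNRP genes but for 3 of 23 HNRNP genes. CCAAT was present for 40 of 75 members (53.3%) against 39.7% of all genes, and for 19 of 23 HNRNP genes, 2 of 11 SRSF genes and 1 of 8 SF3 genes. CACGTG was present for 8 of 75 members (10.7%) against 8.77% of all genes, and 7 of these were HNRNP genes. A match describes the letters of the window and says nothing of a factor's binding.

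Promoters are printed for 3 genes that were low with both constructs in both lines (LSM4, DDX39A, SNRPB) and for 2 that were low against sgNTC18 in 786-O-derived cells (HNRNPM, HNRNPD). Capitals mark the motifs found, on either strand. They cover chr19:18323027-18323326 (minus strand), chr19:14419292-14419591 (minus), chr20:2470740-2471039 (minus), chr19:8444725-8445024 (plus) and chr4:82373942-82374241 (minus). CCAAT is found once for LSM4, on the opposite strand at position -96 from the start, and at -172, -125 and -95 for DDX39A. SNRPB has CCGGAAG at -41, HNRNPM has CACGTG at -42, and HNRNPD has CACGTG at -27 and CCGGAAG on the opposite strand at -183.
LSM4: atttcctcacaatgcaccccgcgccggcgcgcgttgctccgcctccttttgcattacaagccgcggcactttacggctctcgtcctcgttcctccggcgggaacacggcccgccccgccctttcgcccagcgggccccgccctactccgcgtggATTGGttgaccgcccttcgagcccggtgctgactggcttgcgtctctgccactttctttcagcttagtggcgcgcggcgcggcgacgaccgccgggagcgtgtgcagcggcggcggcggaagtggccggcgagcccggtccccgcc
DDX39A: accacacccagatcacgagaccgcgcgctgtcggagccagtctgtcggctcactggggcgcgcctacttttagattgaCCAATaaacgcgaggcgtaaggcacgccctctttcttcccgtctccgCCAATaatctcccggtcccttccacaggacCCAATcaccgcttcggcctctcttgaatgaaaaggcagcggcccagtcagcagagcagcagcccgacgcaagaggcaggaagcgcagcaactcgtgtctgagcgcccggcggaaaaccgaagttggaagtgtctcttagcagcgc
SNRPB: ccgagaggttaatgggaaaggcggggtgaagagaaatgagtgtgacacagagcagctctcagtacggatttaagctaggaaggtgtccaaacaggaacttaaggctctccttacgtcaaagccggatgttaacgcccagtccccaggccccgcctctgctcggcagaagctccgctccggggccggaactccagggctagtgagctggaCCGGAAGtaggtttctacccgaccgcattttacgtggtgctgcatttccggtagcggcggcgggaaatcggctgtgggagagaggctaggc
HNRNPM: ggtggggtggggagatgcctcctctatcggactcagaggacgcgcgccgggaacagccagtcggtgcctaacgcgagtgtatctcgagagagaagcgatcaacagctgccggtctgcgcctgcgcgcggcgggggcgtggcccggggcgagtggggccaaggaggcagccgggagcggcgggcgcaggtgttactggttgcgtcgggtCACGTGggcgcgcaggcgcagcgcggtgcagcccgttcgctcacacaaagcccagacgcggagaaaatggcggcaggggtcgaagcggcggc
HNRNPD: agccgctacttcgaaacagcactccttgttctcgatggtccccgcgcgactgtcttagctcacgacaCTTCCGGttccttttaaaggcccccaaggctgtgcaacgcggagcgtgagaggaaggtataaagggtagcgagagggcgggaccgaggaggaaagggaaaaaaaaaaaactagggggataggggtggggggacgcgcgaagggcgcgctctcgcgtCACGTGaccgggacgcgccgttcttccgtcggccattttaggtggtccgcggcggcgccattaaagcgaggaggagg

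The libraries held 11634419 to 52059375 expected counts (median 20511914.5). Levels are given as CPM, counts relative to the normalised library size, and changes are log2 fold changes with their standard error (SE). A gene was called when its adjusted p was under 0.05. PAX8 itself stood at 291, 393, 359.6 and 319 CPM in the 786-O-derived sgNTC18 libraries, and at 18.7 ± 4.31 CPM (SD, n = 4) with shPAX8-1 and 42.4 ± 2.36 CPM with shPAX8-2. PAX8 in OS-LM1 cells fell from 259.8 ± 14.5 CPM to 78.2 ± 13.05 and 79.2 ± 13.7 CPM. The averaged change of PAX8 was -3.58 (SE 0.12, adjusted p = 5.6e-12) in 786-O-derived cells and -1.73 (SE 0.10, adjusted p = 9.4e-12) in OS-LM1 cells.

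Libraries that stood apart bear on several members below. In 786-O-derived cells with shPAX8-1, replicates 1 and 2 resembled each other and replicates 3 and 4 resembled each other. Their counts differed by a chi-square per gene of 14.1 and 3.73 within these pairs and of 44.7 to 77.4 between them. With shPAX8-2 in these cells the same pairs gave 3.956 and 11.68 within and 14.92 to 19.23 between, a smaller split. This measure also rises with library depth. Its largest value in any group was 89.45, between OS-LM1 shPAX8-2 replicates 3 and 4, which held 52059375 and 33555410 expected counts. Replicates 2 and 3 of that group gave 59.73. In OS-LM1 cells with shPAX8-1, replicate 3 was the extreme library for several members. Markers of other cell types were near 0: the summed level of 4 leukocyte genes ran from 0.246 to 0.582 CPM in 786-O-derived sgNTC18 libraries and from 1.02 to 2.77 CPM with shPAX8, and from 0.361 to 0.528 and from 1.75 to 3.97 CPM in OS-LM1, with CD3E at 0 in every group. The sum of 3 fibroblast genes ran from 0.442 to 1.56 CPM and from 3.24 to 8.61 CPM in 786-O-derived cells, and from 0.563 to 0.862 and from 1.31 to 4.52 CPM in OS-LM1. The sum of 3 endothelial genes did not pass 0.923 CPM. Renal epithelial markers, a list of 9 that holds PAX8, were at 1169 to 1356 CPM in 786-O-derived sgNTC18 libraries and at 226 to 395 CPM with shPAX8, with all 9 called lower. In OS-LM1 cells that sum was 1354 to 1473 CPM and 912 to 1399 CPM, with 5 called lower and 2 higher. The sum of 7 ccRCC markers was 9542 to 9708, 8578 to 9612 and 9300 to 10539.5 CPM with sgNTC18, shPAX8-1 and shPAX8-2 in 786-O-derived cells. Of 5 tested there, 2 were called lower and 2 higher. In OS-LM1 cells it was 8820 to 11950, 5853 to 6108 and 4256 to 5548 CPM, with 3 called lower and 4 higher. The part of these shifts in the results below was not tested.

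Splicing factor transcripts took a smaller share of all counts with shPAX8 than with sgNTC18 in both lines. Their share was 0.9462% ± 0.0235 (SD, n = 4) in 786-O-derived sgNTC18 libraries, 0.7334% ± 0.0329 with shPAX8-1 and 0.6996% ± 0.0255 with shPAX8-2. For OS-LM1 cells it was 1.036% ± 0.0176, 0.8914% ± 0.0483 and 0.8545% ± 0.0253. The sgNTC18 libraries lay above every shPAX8 library of their line. In bulk RNA, fewer cells that express a gene and less RNA of it per cell cannot be told apart. The HNRNP genes had the highest summed CPM of the 7 classes. Their sum was 3410 ± 119 CPM with sgNTC18 and 2027 ± 239.8 and 1917 ± 157 CPM with shPAX8-1 and shPAX8-2 in 786-O-derived cells, and 3759 ± 214 against 2804 ± 285 and 2882 ± 79.8 CPM in OS-LM1 cells. The SRSF genes fell from 1399 ± 22.1 to 1032 ± 53.4 and 1040.2 ± 22.8 CPM in 786-O-derived cells and stayed between 1524 and 1674.6 CPM in all 12 OS-LM1 libraries. The fall was thus not shared by every class. The SNRP sum was 919 ± 52.8, 929 ± 80.1 and 765 ± 74.3 CPM in 786-O-derived cells and 1419.5 ± 58.2, 1216 ± 137 and 1166 ± 91.9 CPM in OS-LM1 cells. The SF3 sum was 1423 ± 26.0, 1278 ± 45.3 and 1311 ± 32.2 CPM and 1445 ± 63.6, 1430 ± 51.8 and 1443 ± 73.5 CPM.

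Not every member could be tested. In 786-O-derived cells 83 members passed the filter on low counts and in OS-LM1 cells 84. HNRNPA1P33, HNRNPA3P1, SNRPD2P2 and the genes HNRNPCL1 to HNRNPCL4 passed in neither line, and HNRNPKP3 passed in OS-LM1 only. With both constructs averaged, 57 of 83 members were called in 786-O-derived cells, beside 70.4% of all genes tested. Of these, 35 were lower (34.7% of all genes) and 22 higher (35.7%). In OS-LM1 cells 59 of 84 were called, beside 73.4% of all genes, with 38 lower (37.1%) and 21 higher (36.4%). The share of members called was thus near that of all genes. The median member changed by -0.16 in 786-O-derived cells and by -0.14 in OS-LM1 cells, against 0.04 and -0.01 over all genes tested (log2 scale). Without LSM4 and DDX39A, 33 of 81 and 36 of 82 members were called lower. In 786-O-derived cells 30 members had all 8 shPAX8 libraries below all 4 sgNTC18 libraries (24.9% of all genes) and 14 had them above (22.3%). In OS-LM1 cells these counts were 26 (25.8%) and 16 (26.3%).

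Each construct was also compared alone. In 786-O-derived cells 59 members were called with shPAX8-1 (70.6% of all genes), 34 lower (34.5%) and 25 higher (36.1%), and 52 with shPAX8-2 (62.5%), 37 lower (30.9%) and 15 higher (31.5%). In OS-LM1 cells 58 were called with shPAX8-1 (71.4%), 38 lower (35.8%) and 20 higher (35.6%), and 51 with shPAX8-2 (68.4%), 32 lower (34.1%) and 19 higher (34.3%). With each library's GC trend removed, the shPAX8-1 calls in OS-LM1 cells became 47 lower and 14 higher in place of 38 and 20. The share of all genes was not counted anew for that fit. The constructs share the sgNTC18 libraries, so their counts are not independent of each other.

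**Figure D1:**
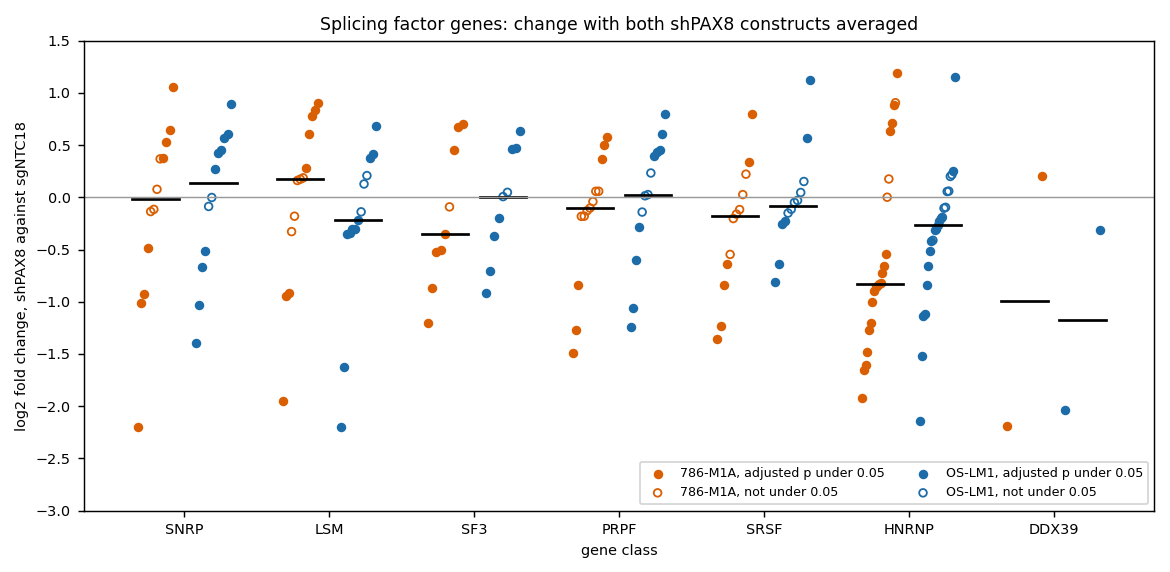
Log2 fold change of each tested member with both shPAX8 constructs averaged against sgNTC18, by gene class, in 786-O-derived cells (orange) and OS-LM1 (blue) cells. Each point is a gene, filled where the adjusted p is under 0.05, and black lines are class medians. The HNRNP median is -0.83 in 786-O-derived cells and -0.26 in OS-LM1 cells, and the LSM, SNRP and SF3 genes spread to both sides of 0.

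Calls by class are given as a description, with no test between classes. Of all genes tested, 34.7% were lower and 35.7% higher in 786-O-derived cells, and 37.1% and 36.4% in OS-LM1 cells. Of 22 HNRNP genes tested in 786-O-derived cells 15 were lower and 4 higher, with a median of -0.83, and of 23 in OS-LM1 cells 13 were lower and 2 higher, with a median of -0.26. The SNRP genes split evenly in 786-O-derived cells, with 4 lower and 4 higher of 12, and gave 4 lower and 6 higher of 12 in OS-LM1. The LSM genes gave 3 lower and 5 higher of 13 in 786-O-derived cells and 7 lower and 3 higher in OS-LM1. For the SF3 genes the counts were 5 lower and 3 higher of 9, and 4 lower and 3 higher. For the PRPF genes they were 3 and 3 of 13, and 4 and 5. For the SRSF genes they were 4 lower and 2 higher of 12 in each line.

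LSM4, a subunit of the LSM ring that binds U6 and of the cytoplasmic ring that promotes decapping, was among the largest falls in both lines. Its levels were 188, 207, 209 and 203 CPM in the 786-O-derived sgNTC18 libraries, 60.4, 57.95, 49.3 and 56.4 CPM with shPAX8-1 and 42.6, 43.9, 43.99 and 59.03 CPM with shPAX8-2. OS-LM1 levels were 187, 165, 173 and 167 CPM, 53.2, 59.1, 58.2 and 55.8 CPM and 60.5, 51.1, 60.4 and 54.00 CPM. No shPAX8 library reached the lowest sgNTC18 library of its line. The change was -1.95 (SE 0.093) in 786-O-derived cells and -1.62 (SE 0.067) in OS-LM1 cells, that is 3.86-fold and 3.08-fold lower. The constructs gave nearly equal LSM4 levels, with differences of 0.24 (SE 0.11, adjusted p = 0.090) in 786-O-derived cells and -0.028 (SE 0.082, adjusted p = 0.83) in OS-LM1 cells.

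DDX39A fell about as far. Its levels were 148, 172, 145 and 168 CPM with sgNTC18, 38.1, 34.6, 30.6 and 29.3 CPM with shPAX8-1 and 34.9, 36.3, 30.9 and 39.7 CPM with shPAX8-2 in 786-O-derived cells. OS-LM1 levels were 89.5, 78.9, 84.7 and 76.4 CPM, 16.7, 18.6, 16.8 and 17.6 CPM and 23.6, 21.1, 25.6 and 22.7 CPM. Again the groups did not overlap, and the change was -2.19 (SE 0.093) and -2.04 (SE 0.073), or 4.55-fold and 4.12-fold lower. In OS-LM1 cells DDX39A was lower with shPAX8-1 than with shPAX8-2, by -0.45 (SE 0.091, adjusted p = 9.9e-04). With sgNTC18, DDX39A was lower in OS-LM1 than in 786-O-derived cells by -0.94 (SE 0.10, adjusted p = 3.3e-09).

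DDX39B, the paralogue of DDX39A, moved little and in opposite directions in the lines. It stood at 181, 195, 175 and 184 CPM with sgNTC18 in 786-O-derived cells and at 197 to 211 and 207 to 225 CPM with shPAX8-1 and shPAX8-2, a change of 0.21 (SE 0.067, adjusted p = 0.012). Its OS-LM1 levels were 194, 199, 189.7 and 190.1 CPM and 136 to 159 and 145 to 186 CPM, a change of -0.32 (SE 0.073, adjusted p = 7.1e-04). The difference between these changes was -0.49 (SE 0.095, adjusted p = 8.0e-05). The rise in 786-O-derived cells lost its call without sgNTC18 replicate 3 (0.175) and with no filter on low counts (0.139). All 3 transcripts of DDX39B carry names that mark alternative copies of the locus in the files, so its reads may be split among copies.

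**Figure D2:**
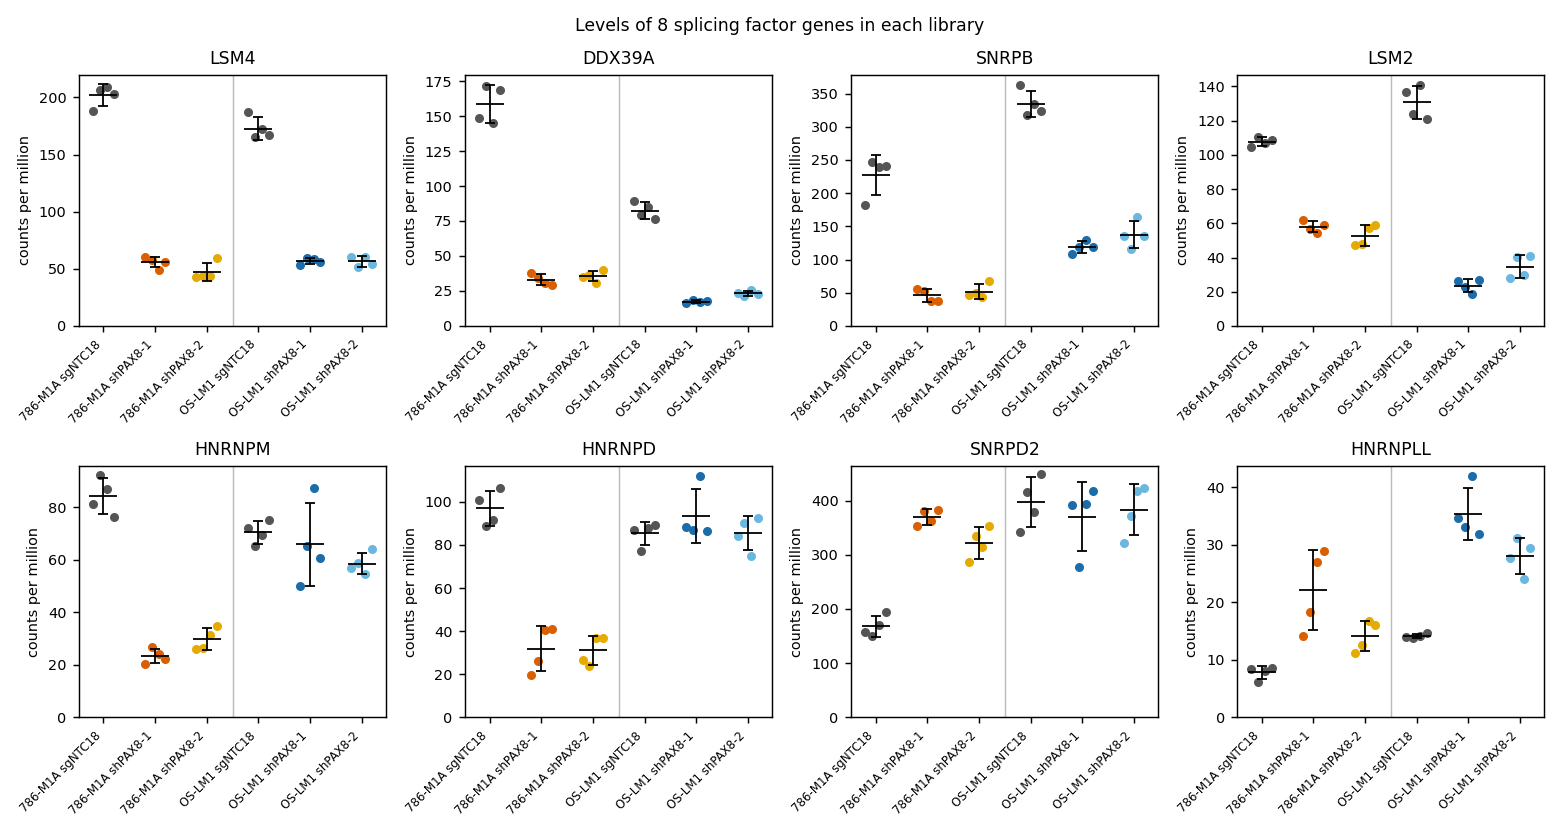
CPM of 8 members in each library, with the mean and SD of the 4 replicates of each group. LSM4, DDX39A, SNRPB and LSM2 lie below sgNTC18 in both lines, HNRNPM and HNRNPD in 786-O-derived cells, and SNRPD2 lies above it in 786-O-derived cells.

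The ring that LSM4 belongs to did not fall as a unit. LSM2, another subunit of both rings, was also low in both lines, and more so in OS-LM1 cells. It went from 105, 110.4, 107 and 109 CPM to 61.8, 56.8, 54.3 and 58.7 CPM with shPAX8-1 and 47.6, 47.7, 57.1 and 59.1 CPM with shPAX8-2 in 786-O-derived cells. The OS-LM1 levels went from 137, 124, 141 and 121 CPM to 26.4, 22.8, 18.7 and 26.7 CPM and 27.8, 40.3, 29.8 and 40.8 CPM. The change was -0.94 (SE 0.081, adjusted p = 7.5e-08) in 786-O-derived cells and -2.20 (SE 0.11, adjusted p = 5.7e-13) in OS-LM1 cells, and the difference between lines was -1.23 (SE 0.15, adjusted p = 7.8e-08). The only transcript of LSM2 in the files carries a copy suffix, so its reads too may be split among copies.

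The other ring genes moved less than LSM4 and LSM2. LSM6, LSM7 and LSM8, of which LSM8 marks the nuclear ring, lay above sgNTC18 in every shPAX8 library of 786-O-derived cells, with changes of 0.84 (SE 0.20, adjusted p = 0.0016), 0.60 (SE 0.10, adjusted p = 7.2e-05) and 0.78 (SE 0.12, adjusted p = 2.6e-05). In OS-LM1 cells LSM7 changed by -0.35 (SE 0.10, adjusted p = 0.0052), LSM6 by 0.13 (SE 0.14, adjusted p = 0.41) and LSM8 by 0.21 (SE 0.11, adjusted p = 0.087). The differences between lines were -0.92 for LSM7, -0.68 for LSM6 and -0.54 for LSM8, all called. LSM6 is a low-level member, at 3.98, 2.71, 2.85 and 4.35 CPM in 786-O-derived sgNTC18 libraries. In OS-LM1 cells its value turned to -0.010 without shPAX8-1 replicate 3, and LSM8 was called without sgNTC18 replicate 4 (0.294) or shPAX8-2 replicate 3 (0.251). With the GC trend removed, the OS-LM1 values of LSM7, LSM6 and LSM8 turned to 0.069, -0.14 and -0.21 (adjusted p = 0.47, 0.31 and 0.057), so that LSM7 lost its call there.

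LSM1, which marks the cytoplasmic ring, stood at 11.7 to 13.3 CPM in 786-O-derived sgNTC18 libraries and changed by -0.33 (SE 0.17, adjusted p = 0.093) there. In OS-LM1 cells it changed by -0.35 (SE 0.10, adjusted p = 0.0028). Without shPAX8-2 replicate 4 or shPAX8-1 replicate 4 the 786-O-derived value was -0.464 or -0.403, with adjusted p of 0.0071 and 0.035. LSM3 changed by 0.16 (SE 0.23, adjusted p = 0.54) and -0.30 (SE 0.13, adjusted p = 0.047), and its OS-LM1 call was lost in 9 of 12 fits that left out 1 library, those without sgNTC18 replicate 2, 3 or 4, shPAX8-2 replicate 1, 3 or 4, or shPAX8-1 replicate 1, 2 or 4 (-0.227 to -0.302). LSM5 changed by -0.18 (SE 0.22, adjusted p = 0.47) and -0.14 (SE 0.13, adjusted p = 0.34), but with the GC trend removed it was called lower in both lines, at -0.55 and -0.54 (adjusted p = 2.8e-04 and 9.3e-06).

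**Figure D3:**
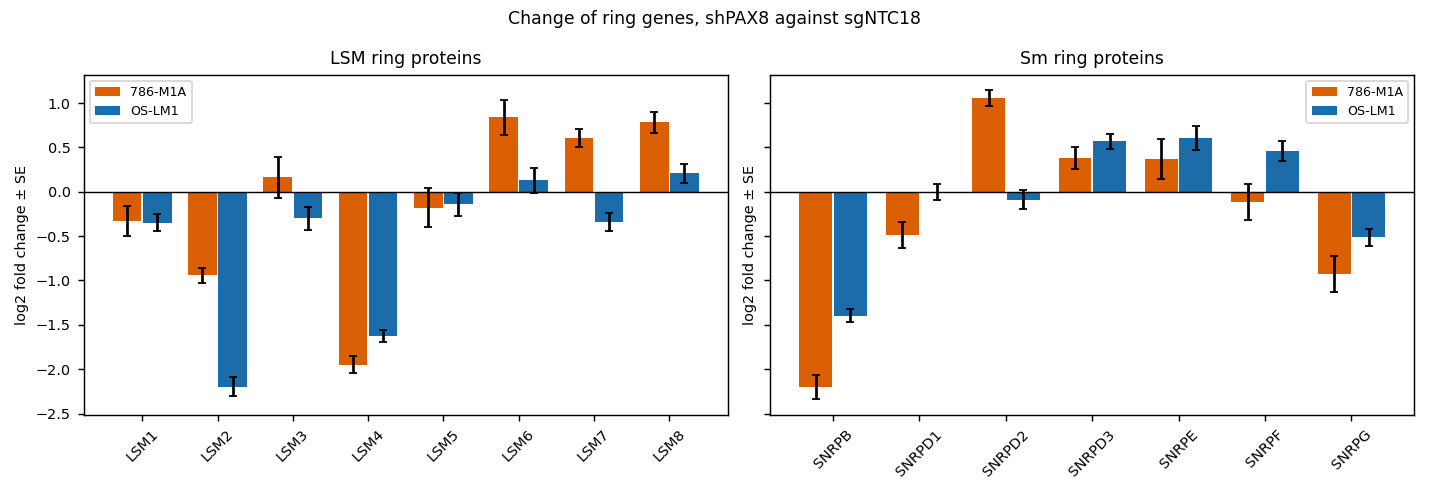
Log2 fold change ± SE of the LSM ring genes (left) and the Sm ring genes (right), both shPAX8 constructs averaged against sgNTC18, in 786-O-derived cells (orange) and OS-LM1 (blue) cells. LSM2, LSM4 and SNRPB fall in both lines while SNRPD3 rises in both.

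LSM10 and LSM11 take the places of SmD1 and SmD2 in the U7 snRNP, which cuts the ends of histone transcripts, and they moved apart. LSM10 fell from 43.8, 46.7, 48.7 and 45.3 CPM to 18.7 to 30.4 and 20.3 to 27.7 CPM in 786-O-derived cells, by -0.91 (SE 0.12, adjusted p = 9.3e-06). Its OS-LM1 levels were 49.01, 43.7, 45.3 and 47.3 CPM with sgNTC18, 47.02, 45.7, 47.7 and 49.5 CPM with shPAX8-1 and 28.1, 28.7, 31.01 and 31.6 CPM with shPAX8-2. Its fall there thus came with shPAX8-2, and the constructs differed by 0.64 (SE 0.082, adjusted p = 9.9e-06). LSM11 rose in 786-O-derived cells by 0.90 (SE 0.12, adjusted p = 9.7e-06), with all shPAX8 libraries above sgNTC18. For OS-LM1 cells it was at 7.34 to 9.34 CPM with sgNTC18, 8.79 to 9.13 CPM with shPAX8-1 and 12.1 to 16.1 CPM with shPAX8-2, and the constructs differed by -0.61 (SE 0.13, adjusted p = 0.0011).

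LSM12, whose protein carries an LSM domain outside the rings, rose by 0.69 (SE 0.10, adjusted p = 4.4e-06) in OS-LM1 cells and changed by 0.17 (SE 0.091, adjusted p = 0.099) in 786-O-derived cells. LSM14B, a translational repressor of RNA granules, changed by 0.19 (SE 0.089, adjusted p = 0.072) and -0.22 (SE 0.094, adjusted p = 0.043).

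Among the Sm ring genes SNRPB, which encodes SmB and SmB′, fell most. It stood at 183, 247, 239.5 and 240.3 CPM in 786-O-derived sgNTC18 libraries, at 56.2, 52.96, 37.4 and 37.2 CPM with shPAX8-1 and at 46.8, 49.2, 43.3 and 67.6 CPM with shPAX8-2. OS-LM1 levels were 362, 317, 334 and 324 CPM, 109, 119, 129.6 and 119 CPM and 135, 116, 164 and 136 CPM. All shPAX8 libraries lay below sgNTC18 in both lines, also beside the single low sgNTC18 replicate 1 of 786-O-derived cells. The change was -2.20 (SE 0.14, adjusted p = 2.7e-09) in 786-O-derived cells and -1.40 (SE 0.077, adjusted p = 4.5e-12) in OS-LM1 cells, or 4.60-fold and 2.63-fold lower, and it was larger in 786-O-derived cells by 0.84 (SE 0.17). SNRPN, the imprinted paralogue whose product can replace SmB, rose in both lines, with changes of 0.53 (SE 0.11, adjusted p = 5.3e-04) and 0.89 (SE 0.083, adjusted p = 8.9e-09). Its 786-O-derived libraries ranged over 6.41 to 9.12 CPM with sgNTC18, 11.9 to 12.8 CPM with shPAX8-1 and 9.22 to 10.8 CPM with shPAX8-2, and its OS-LM1 libraries over 12.4 to 14.8, 27.04 to 27.98 and 21.4 to 25.3 CPM. SNRPB and SNRPN are close paralogues, and how reads shared between them were divided was not tested.

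SNRPD2 went the other way in 786-O-derived cells. Its levels were 158, 149, 170.4 and 194 CPM with sgNTC18, 353, 380.3, 362 and 383 CPM with shPAX8-1 and 286, 335, 314 and 353 CPM with shPAX8-2, which is 2.08-fold higher and a log2 change of 1.06 (SE 0.090, adjusted p = 6.4e-08). In OS-LM1 cells all 3 groups overlapped, at 343 to 449, 277 to 419 and 321 to 423 CPM, with a change of -0.087 (SE 0.11, adjusted p = 0.46). The difference between lines was -1.11 (SE 0.14, adjusted p = 2.9e-07). Per length, SNRPD2 was the highest member in both lines with sgNTC18, at 429 ± 45.6 TPM in 786-O-derived cells and 959 ± 118 TPM in OS-LM1 cells. SNRPB followed in OS-LM1 cells at 522 ± 30.4 TPM, and stood at 375 ± 38.6 TPM in 786-O-derived cells, where HNRNPL, at 389.8 ± 14.8 TPM, lay within the spread of SNRPD2.

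The remaining Sm genes went both ways. SNRPD3 rose by 0.38 (SE 0.13, adjusted p = 0.014) in 786-O-derived cells and by 0.57 (SE 0.088, adjusted p = 9.6e-06) in OS-LM1 cells, and its 786-O-derived call was lost without sgNTC18 replicate 2 (0.324). SNRPG fell in both lines (-0.93 (SE 0.20, adjusted p = 8.4e-04) and -0.52 (SE 0.10, adjusted p = 1.4e-04)). SNRPD1 changed by -0.49 (SE 0.15, adjusted p = 0.0081) in 786-O-derived cells and by -0.0014 (SE 0.089, adjusted p = 0.99) in OS-LM1 cells. SNRPE changed by 0.37 (SE 0.22, adjusted p = 0.15) and 0.60 (SE 0.14, adjusted p = 6.3e-04), and without shPAX8-1 replicate 1 its 786-O-derived value was 0.467 with an adjusted p of 0.027. SNRPF changed by -0.12 (SE 0.20, adjusted p = 0.63) and 0.46 (SE 0.11, adjusted p = 0.0012), and the difference between lines was 0.61. With the GC trend removed, SNRPF was called lower in 786-O-derived cells (-0.36, adjusted p = 0.035) and SNRPD1 in OS-LM1 cells (-0.27, adjusted p = 0.0014). The 7 ring genes thus went in both directions in each line.

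The snRNP-specific proteins also split. SNRPC (U1-C, which helps U1 hold the start of an intron) fell in both lines, with changes of -1.02 (SE 0.091, adjusted p = 1.2e-07) and -0.66 (SE 0.10, adjusted p = 4.0e-06). Its 786-O-derived libraries ranged over 95.8 to 123 CPM with sgNTC18, 60.8 to 69.7 CPM with shPAX8-1 and 41.3 to 52.8 CPM with shPAX8-2, and its OS-LM1 libraries over 99.6 to 106, 59.5 to 90.1 and 49.8 to 61.7 CPM. SNRPA (U1-A) fell in OS-LM1 cells from 141, 131, 128 and 121 CPM to 58.9 to 88.9 and 46.2 to 65.5 CPM, by -1.03 (SE 0.11, adjusted p = 3.7e-08), and overlapped sgNTC18 in 786-O-derived cells, with a change of -0.14 (SE 0.084, adjusted p = 0.16). The difference between lines was -0.87 (SE 0.15, adjusted p = 1.7e-05). SNRPA1 and SNRPB2, the A′ and B″ proteins of U2, did not fall: SNRPA1 changed by 0.65 (SE 0.19, adjusted p = 0.0071) and 0.42 (SE 0.12, adjusted p = 0.0037), and SNRPB2 by 0.077 (SE 0.16, adjusted p = 0.69) and 0.27 (SE 0.10, adjusted p = 0.027).

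Of the SF3 genes, SF3B4, whose protein contacts the pre-mRNA beside the branch site, differed most between lines. Its levels were 129.9, 166, 163 and 155 CPM with sgNTC18 in 786-O-derived cells and 52.8 to 57.04 and 72.8 to 82.7 CPM with shPAX8-1 and shPAX8-2, without overlap. OS-LM1 levels were 177 to 211, 149.9 to 214 and 177 to 252 CPM. The change was -1.20 (SE 0.080, adjusted p = 4.9e-09) and 0.0069 (SE 0.10, adjusted p = 0.95), and the difference 1.24 (SE 0.14, adjusted p = 2.1e-08). SF3B6, the branch-site contact protein also known as p14, rose by 0.46 (SE 0.18, adjusted p = 0.034) and 0.64 (SE 0.11, adjusted p = 4.4e-05). SF3A2 changed by -0.35 (SE 0.12, adjusted p = 0.017) and -0.70 (SE 0.12, adjusted p = 4.1e-05). SF3B3, SF3B2 and SF3A3 were also called lower, and SF3B1 and SF3B5 higher, in both lines.

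PRPF31, which holds the U4/U6 and U5 particles together in the tri-snRNP, fell in both lines. It stood at 28.5, 34.2, 37.3 and 34.1 CPM in 786-O-derived sgNTC18 libraries, 12.9, 11.4, 8.003 and 6.24 CPM with shPAX8-1 and 14.8, 14.9, 12.4 and 14.9 CPM with shPAX8-2. Its OS-LM1 levels were 54.6, 49.2, 53.5 and 58.01, 17.9, 23.2, 27.97 and 18.4 and 24.8, 19.2, 28.5 and 22.8 CPM. The groups did not overlap in either line, with changes of -1.49 (SE 0.15, adjusted p = 4.4e-07) and -1.24 (SE 0.11, adjusted p = 5.1e-09), or 2.81-fold and 2.37-fold lower. Of the other tri-snRNP genes in this set, PRPF4 and PRPF6 moved less. PRPF4 changed by -0.18 (SE 0.091, adjusted p = 0.086) and 0.40 (SE 0.079, adjusted p = 1.5e-04), and PRPF6 by -0.18 (SE 0.10, adjusted p = 0.10) and -0.14 (SE 0.088, adjusted p = 0.16).

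Among the SR proteins, SRSF2 and SRSF3 fell in 786-O-derived cells and were not called in OS-LM1 cells, and the difference between lines passed the test. SRSF2, known as SC35, stood at 319, 386, 351 and 341 CPM with sgNTC18, 127, 121, 129 and 133 CPM with shPAX8-1 and 165, 165, 163 and 180.3 CPM with shPAX8-2 in 786-O-derived cells. OS-LM1 ranges were 355 to 379, 324 to 378 and 349 to 384 CPM. Its change was -1.23 (SE 0.070, adjusted p = 1.0e-09) against -0.049 (SE 0.066, adjusted p = 0.51), a difference of 1.22 (SE 0.091, adjusted p = 1.5e-11). SRSF3, the smallest SR protein, stood at 245, 216, 238 and 245 CPM, 84.98, 91.1, 84.8 and 78.02 CPM and 92.8, 84.1, 103 and 109 CPM in 786-O-derived cells, and at 296 to 346, 269.7 to 290.2 and 272 to 328 CPM in OS-LM1 cells. Its change was -1.36 (SE 0.081, adjusted p = 1.6e-09) against -0.11 (SE 0.072, adjusted p = 0.16), a difference of 1.28 (SE 0.11, adjusted p = 1.5e-10).

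SRSF6 and SRSF4, related SR proteins with a pair of RNA-binding domains, rose, SRSF6 more in OS-LM1 and SRSF4 in 786-O-derived cells. SRSF6 went from 111, 119.8, 99.5 and 103 CPM to 236, 273, 243 and 252 CPM with shPAX8-1 and 231, 244, 213 and 216 CPM with shPAX8-2 in OS-LM1 cells, which is 2.18-fold higher (1.13 (SE 0.081, adjusted p = 2.3e-10)). In 786-O-derived cells it changed by 0.33 (SE 0.10, adjusted p = 0.0059), with overlap, and the difference between lines was 0.82 (SE 0.12, adjusted p = 1.2e-06). SRSF4 went from 95.1, 101, 94.7 and 94.03 CPM to 172 to 180.2 and 148 to 155 CPM in 786-O-derived cells (0.79 (SE 0.068, adjusted p = 7.2e-08)) and changed by -0.029 (SE 0.077, adjusted p = 0.74) in OS-LM1 cells, a difference of -0.79 (SE 0.094, adjusted p = 7.4e-08).

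Several hnRNP genes fell more in 786-O-derived cells. HNRNPM, a repressor of many exons, stood at 81.2, 92.2, 86.95 and 76.4 CPM with sgNTC18, 20.4, 26.6, 24.2 and 22.4 CPM with shPAX8-1 and 26.2, 26.4, 31.5 and 34.9 CPM with shPAX8-2, whereas in OS-LM1 cells it stood at 72.02, 65.1, 69.3 and 75.3 CPM, 49.98, 65.3, 87.4 and 60.8 CPM and 56.7, 58.8, 54.5 and 64.1 CPM. The groups did not overlap in 786-O-derived cells (-1.65 (SE 0.10, adjusted p = 1.9e-09), 3.15-fold lower) and overlapped in OS-LM1 cells (-0.19 (SE 0.11, adjusted p = 0.11)). The difference between lines was 1.49 (SE 0.16, adjusted p = 9.0e-09).

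HNRNPD, also called AUF1, which binds AU-rich elements of unstable transcripts, behaved likewise. It stood at 101, 88.97, 91.5 and 106 CPM, 19.7, 26.3, 40.6 and 40.9 CPM and 26.8, 23.9, 36.8 and 36.9 CPM in 786-O-derived cells and at 86.9, 77.4, 88.03 and 89.2 CPM, 88.3, 87.1, 112 and 86.4 CPM and 84.2, 90.4, 74.7 and 92.5 CPM in OS-LM1 cells. It was 3.04-fold lower in 786-O-derived cells (-1.60 (SE 0.17, adjusted p = 7.2e-07)), changed by 0.056 (SE 0.085, adjusted p = 0.56) in OS-LM1 cells, and had the most positive difference between lines of the members tested, 1.69 (SE 0.20, adjusted p = 9.3e-08). HNRNPU, which also binds chromatin as scaffold attachment factor A, fell in both lines. It had means of 267 ± 17.03, 83.6 ± 8.93 and 106 ± 15.05 CPM (SD, n = 4) with sgNTC18, shPAX8-1 and shPAX8-2 in 786-O-derived cells (-1.49 (SE 0.094, adjusted p = 2.9e-09)) and of 273 ± 14.6, 223 ± 21.2 and 235 ± 18.2 CPM in OS-LM1 cells (-0.26 (SE 0.075, adjusted p = 0.0041)). The difference was 1.26 (SE 0.12, adjusted p = 2.4e-09).

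HNRNPAB, an A/B-type hnRNP, fell in both lines without overlap. Its levels were 279, 248, 271 and 257 CPM, 61.8 to 69.6 CPM and 60.02 to 86.7 CPM in 786-O-derived cells, and 332, 217, 289.6 and 264 CPM, 93.6 to 131 CPM and 141 to 163 CPM in OS-LM1 cells, with changes of -1.93 (SE 0.091, adjusted p = 1.6e-10) and -1.11 (SE 0.10, adjusted p = 3.4e-09). HNRNPUL2, a relative of HNRNPU, fell more in OS-LM1 cells (-1.52 (SE 0.084, adjusted p = 4.6e-12), with means of 42.3 ± 1.72, 14.6 ± 1.11 and 15.1 ± 1.75 CPM) than in 786-O-derived cells (-0.83 (SE 0.11, adjusted p = 7.5e-06)), a difference of -0.65 (SE 0.14, adjusted p = 2.2e-04). HNRNPH3 went in opposite directions, with 0.71 (SE 0.15, adjusted p = 5.5e-04) and -0.30 (SE 0.10, adjusted p = 0.013), a difference of -0.98 (SE 0.18, adjusted p = 6.0e-05).

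HNRNPLL, a regulator of CD45 exon choice in lymphocytes, rose with each construct in each line. Its levels were 8.46, 6.08, 8.02 and 8.60 CPM with sgNTC18, 14.2, 18.4, 26.96 and 28.9 CPM with shPAX8-1 and 11.1, 12.6, 16.7 and 16.1 CPM with shPAX8-2 in 786-O-derived cells, and 13.9, 13.8, 14.05 and 14.6 CPM, 34.6, 33.1, 41.9 and 31.9 CPM and 27.6, 31.2, 23.96 and 29.5 CPM in OS-LM1 cells. All shPAX8 libraries lay above sgNTC18 in both lines, with changes of 1.19 (SE 0.19, adjusted p = 5.6e-05) and 1.15 (SE 0.10, adjusted p = 3.1e-09), or 2.29-fold and 2.22-fold. The sum of 4 leukocyte genes also rose, to at most 2.77 CPM in 786-O-derived cells and 3.97 CPM in OS-LM1 cells, with CD3E at 0, and its part in the rise of HNRNPLL was not tested.

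HNRNPA1P10, a transcribed pseudogene of HNRNPA1 that shares much of its sequence, gave 0.89 (SE 0.19, adjusted p = 6.0e-04) in 786-O-derived cells and -0.41 (SE 0.70, adjusted p = 0.61) in OS-LM1 cells. Its levels in OS-LM1 cells were 73.99, 31.9, 29.8 and 45.7 CPM with sgNTC18 and 12.8, 6.82, 131 and 23.7 CPM with shPAX8-1, so replicate 3 with shPAX8-1 stood far above the others. Reads of the pseudogene and its parent may have been divided differently between libraries, and both values are uncertain. HNRNPH2, chosen after its values were seen, fell in OS-LM1 cells (-2.14 (SE 0.36, adjusted p = 2.2e-05)) but stood at only 1.23 to 2.47 CPM with sgNTC18 and 0 to 0.361 and 0.358 to 1.11 CPM with the constructs.

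Calls shared by the lines rest on separate libraries. Of 83 members tested in both, 26 were lower in both lines, beside 21.9% of all genes, 12 were higher in both (19.7%) and 3 were called in opposite directions (12.5%). Without LSM4 and DDX39A, which were chosen for their falls, 24 of 81 were lower in both. With an absolute log2 fold change over 0.58 required in each line, 16 were lower in both and 1 higher. The share of all genes was not counted at that threshold. The 26 included SNRPB, SNRPC, SNRPG, LSM2, LSM10, PRPF31, SF3A2 and, among the hnRNPs, HNRNPAB, HNRNPU, HNRNPUL2, HNRNPL, HNRNPF and HNRNPK. The 12 were HNRNPLL, LSM11, LSM14A, PRPF38B, PRPF4B, SF3B1, SF3B5, SF3B6, SNRPA1, SNRPD3, SNRPN and SRSF6. DDX39B, HNRNPH3 and LSM7 were the 3 opposite calls, of which LSM7 lost its OS-LM1 call and direction with the GC trend removed. The counts then became 36 lower and 7 higher, and the share of all genes was not counted anew. The members have a lower GC content than other genes, with a median of 44.15% against 47.8% in 786-O-derived cells, and over all genes log2 fold changes and GC content had a Spearman correlation of -0.253 in 786-O-derived cells and -0.307 in OS-LM1 cells.

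The size of the change depended on the line for 47 of 84 members, beside 58.7% of all genes, by the interaction of line and depletion, which is the OS-LM1 change minus the 786-O-derived change. It was positive for 29 members (29.9% of all genes) and negative for 18 (28.8%), or 28 and 18 of 82 without LSM4 and DDX39A. The most positive named members were HNRNPD (1.69), HNRNPM (1.49), SRSF3 (1.28), HNRNPU (1.26) and SF3B4 (1.24), which all fell in 786-O-derived cells. The most negative at an average log2 CPM of at least 3 were LSM2 (-1.23), SNRPD2 (-1.11), HNRNPH3 (-0.98), LSM7 (-0.92) and SNRPA (-0.87). PAX8 RNA itself differed by 1.87 (SE 0.17), with the larger fall against sgNTC18 in 786-O-derived cells. Its part in the differences of the members was not tested.

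The direct comparison of the constructs does not involve sgNTC18. In 786-O-derived cells 34 of 83 members differed between shPAX8-1 and shPAX8-2, beside 47.1% of all genes, 24 higher with shPAX8-1 (24.2%) and 10 lower (22.9%). Small snRNP and LSM genes led the higher ones: SNRPG at 1.054 (SE 0.25, adjusted p = 0.0034), SNRPE at 0.97 (SE 0.26, adjusted p = 0.0075), LSM5 at 0.89 (SE 0.26, adjusted p = 0.011) and SF3B6 at 0.85 (SE 0.21, adjusted p = 0.0041). PRPF31 (-0.56 (SE 0.19, adjusted p = 0.024)), SF3B4 (-0.48 (SE 0.10, adjusted p = 0.0013)), SF3A2 (-0.42 (SE 0.14, adjusted p = 0.025)) and SRSF2 (-0.40 (SE 0.084, adjusted p = 0.0017)) led the lower ones at an average log2 CPM of at least 3. PAX8 was lower with shPAX8-1 by -1.18 (SE 0.15, adjusted p = 4.0e-05).

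The shPAX8-1 replicates of 786-O-derived cells split for these genes. SNRPG was at 32.4, 39.9, 72.1 and 74.2 CPM in replicates 1 to 4 with shPAX8-1, 23.4, 18.4, 30.3 and 33.4 CPM with shPAX8-2 and 81.8, 61.5, 72.2 and 76.8 CPM with sgNTC18. LSM5 was at 17.6, 22.7, 42.6 and 41.4, 12.2, 13.8, 20.9 and 20.3 and 29.6, 22.4, 26.01 and 26.6 CPM, and SF3B6 at 108, 138, 228 and 227, 82.00, 84.5, 118 and 104 and 105, 84.3, 96.6 and 100.2 CPM. In each, replicates 3 and 4 with shPAX8-1 stood above replicates 1 and 2, and the same order held with shPAX8-2. With replicates 3 and 4 alone as the shPAX8-1 group, 47 members were called, 33 higher and 14 lower. With all libraries and the replicate number as a block, 35 were called, 25 higher and 10 lower. The share of all genes was not counted for these fits or the next, and each kept all 4 shPAX8-2 libraries. With replicates 1 and 2 alone as the shPAX8-1 group, 12 members were called, 5 higher and 7 lower. SNRPG then changed by 0.463, SNRPE by 0.374, LSM5 by 0.275 and SF3B6 by 0.345, none called. PRPF31 (-0.233) and SF3A2 (-0.201) lost their calls there as well, and also without shPAX8-2 replicate 1 or 2 or shPAX8-1 replicate 3 or 4, and PRPF31 without shPAX8-2 replicate 4 (down to -0.403 and -0.319). With the GC trend removed the calls over all replicates became 24 higher and 19 lower. The share of all genes was not counted anew for that fit. PRPF31 (-0.16), SF3B4 (-0.17) and LSM5 (0.34) lost their calls in it (adjusted p = 0.24, 0.15 and 0.051), and SF3A2 turned to 0.18 (adjusted p = 0.089). Across all genes the difference between the constructs had a Spearman correlation of -0.555 with GC content.

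**Figure D4:**
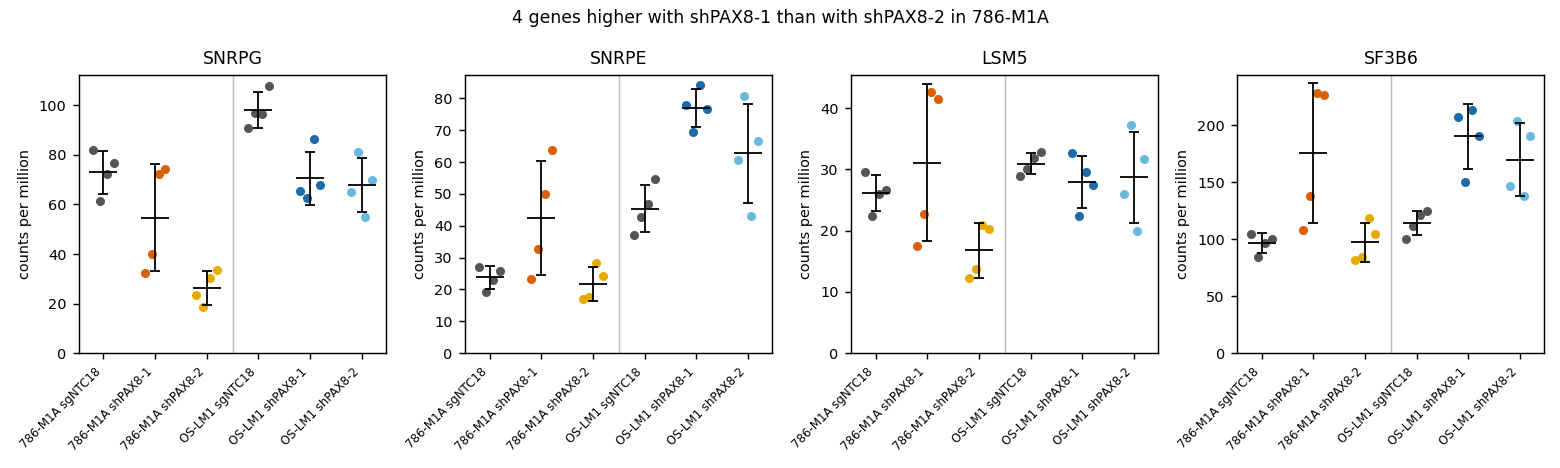
CPM of SNRPG, SNRPE, LSM5 and SF3B6 in each library, with the mean and SD of the 4 replicates. In 786-O-derived cells with shPAX8-1 the points form 2 pairs, replicates 3 and 4 above replicates 1 and 2.

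In OS-LM1 cells the constructs differed for 18 of 84 members, beside 29.1% of all genes, 4 higher with shPAX8-1 (12.4%) and 14 lower (16.7%). The 4 higher were LSM10 (0.64), SNRPC (0.40 (SE 0.11, adjusted p = 0.013)), SNRPA (0.37 (SE 0.13, adjusted p = 0.036)) and HNRNPLL (0.31 (SE 0.11, adjusted p = 0.039)). Of 12 fits that left out 1 library, SNRPC lost its call in 3 (without shPAX8-2 replicate 1 or shPAX8-1 replicate 1 or 4), SNRPA in 4 (without shPAX8-2 replicate 1 or 2 or shPAX8-1 replicate 1 or 4) and HNRNPLL in 4 (without replicate 1 or 3 of either construct), with values down to 0.302, 0.261 and 0.240. LSM11 (-0.61), LSM2 (-0.59 (SE 0.13, adjusted p = 0.0023)), HNRNPAB (-0.51 (SE 0.12, adjusted p = 0.0026)) and DDX39A (-0.45) led the lower ones at an average log2 CPM of at least 3. PAX8 differed by -0.050 (SE 0.12, adjusted p = 0.80) between the constructs.

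Without depletion, many members were higher in OS-LM1 than in 786-O-derived cells. With sgNTC18, 51 of 84 members differed between the lines, beside 63% of all genes, 39 higher in OS-LM1 (32%) and 12 lower (31%), with a median of 0.24 against 0.01 over all genes. With the GC trend removed these became 30 and 22, and SF3A2, named below among the lower ones, lost its call (-0.19, adjusted p = 0.058). The share of all genes was not counted anew for that fit. Among members at an average log2 CPM of at least 3, U2 and Sm genes led the higher ones: SNRPB2 (1.35 (SE 0.16, adjusted p = 6.2e-08)), SNRPA1 (1.34 (SE 0.19, adjusted p = 1.0e-06)), SNRPD2 (1.24 (SE 0.12, adjusted p = 8.6e-10)), SNRPF (1.002 (SE 0.20, adjusted p = 7.9e-05)) and SNRPE (0.93 (SE 0.22, adjusted p = 7.1e-04)). SNRPB2, for one, stood at 25.4, 18.8, 24.6 and 24.9 CPM in 786-O-derived cells and 52.5, 58.7, 60.1 and 68.8 CPM in OS-LM1 cells. LSM14B (-0.95 (SE 0.11, adjusted p = 1.3e-08)), DDX39A (-0.94), PRPF6 (-0.82 (SE 0.11, adjusted p = 2.6e-07)), SF3A2 (-0.81 (SE 0.16, adjusted p = 6.9e-05)) and PRPF4 (-0.71 (SE 0.094, adjusted p = 2.9e-07)) led the lower ones. Each line was 1 population, so differences between them are those of these lines.

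Splicing factor transcripts are themselves spliced in several ways, and SR protein genes carry exons whose inclusion leads to decay of the transcript. RSEM gives each gene a length weighted by the estimated abundance of its transcripts, and this length was compared for genes with at least 2 transcripts in the files. It changed for 20 of 45 members in 786-O-derived cells, beside 25.8% of all such genes, 12 longer (11.7%) and 8 shorter (14.1%). For OS-LM1 cells the count was 11 of 44, beside 19.5%, 2 longer (5.27%) and 9 shorter (14.3%). Which transcript accounts for a length cannot be read from the gene table.

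SRSF2 lengthened in one line and shortened in the other. Its weighted length was 2165, 2167, 2138 and 2171 bases in 786-O-derived sgNTC18 libraries, 2369, 2335, 2389 and 2411 with shPAX8-1 and 2305, 2303, 2306 and 2279 with shPAX8-2, a rise of 8.17% (adjusted p = 7.3e-06). For OS-LM1 cells it was 2229, 2281, 2214 and 2220.3, 2061, 2076, 2049.7 and 2055 and 2059, 2009, 2033 and 2030.0 bases, a change of -8.48% (adjusted p = 1.2e-05). The difference on the log2 scale was -0.24 (SE 0.012, adjusted p = 1.0e-10). SRSF2 has 3 transcripts in the files, of which 1 is annotated as non-coding.

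SRSF1 shortened in 786-O-derived cells, from 5452, 5463, 5435 and 5442 bases to 4898 to 5029 with shPAX8-1 and 4894 to 4979 with shPAX8-2 (-8.96%, adjusted p = 9.9e-07), and lay between 5426 to 5443 bases with sgNTC18 and 5416 to 5454 and 5437 to 5452 bases with the constructs in OS-LM1 cells (0.15%, adjusted p = 0.50). The difference was 0.14 (SE 0.0073, adjusted p = 1.9e-10). SRSF3 lengthened in 786-O-derived cells, with ranges of 3308 to 3349 bases with sgNTC18 and 3519.8 to 3567 and 3445 to 3528 with the constructs (5.83%), with a difference between lines of -0.085 (SE 0.0088, adjusted p = 1.7e-06). SRSF6 changed by 2.13% and -2.09%, a difference of -0.061 (SE 0.0052, adjusted p = 1.4e-07).

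**Figure D5:**
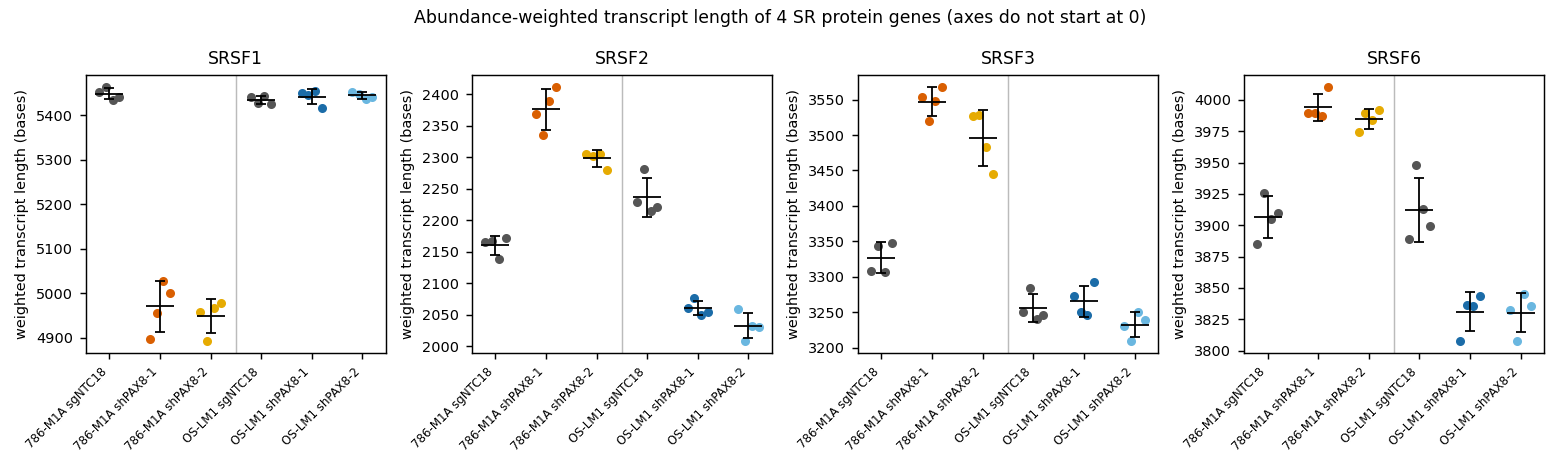
Abundance-weighted transcript length in bases of SRSF1, SRSF2, SRSF3 and SRSF6 in each library, with the mean and SD of the 4 replicates. The axes do not start at 0. SRSF2 lies above sgNTC18 with both constructs in 786-O-derived cells and below it in OS-LM1 cells, and SRSF1 falls to between 4894 and 5029 bases in 786-O-derived cells.

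Length changes of other members were smaller than those of SRSF1, SRSF2 and SRSF3 in 786-O-derived cells. HNRNPAB lengthened by 4.33% in 786-O-derived cells, and SF3B1 by 3.22% and 3.83%. HNRNPM changed by -0.94% and HNRNPUL1 by -0.64% in 786-O-derived cells, and HNRNPLL by -1.79% and HNRNPH1 by 0.43% in OS-LM1 cells. The HNRNPUL1 call was lost in 9 of 12 fits that left out 1 library, all but those without shPAX8-2 replicate 4 or shPAX8-1 replicate 1 or 2. Between the constructs 1 of 45 members differed in 786-O-derived cells (SRSF2, longer with shPAX8-1, beside 1.16% of all genes called either way and 0.318% called longer), and that call was lost in 11 of 12 fits that left out 1 library, all but that without shPAX8-1 replicate 2. In OS-LM1 cells 0 of 44 did, beside 0.335%.

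Splicing genes outside the rule, in lists written with earlier results of these data known, also went both ways. Their counts stand beside 34.7% lower and 35.7% higher of all genes in 786-O-derived cells and 37.1% and 36.4% in OS-LM1 cells. Genes are named from the 2 largest called changes each way in a line. One named for a single line may therefore have changed in the other as well. Of 21 other U snRNP proteins 12 were lower and 3 higher in 786-O-derived cells and 12 and 4 in OS-LM1 cells. SNRNP25 of the U11/U12 snRNP fell in both (-1.88 and -1.34), EFTUD2, the U5 GTPase, fell in 786-O-derived cells (-1.78) and PPIH in OS-LM1 cells (-1.16), while RNPC3 (0.95) and ZMAT2 (0.85) rose. Of 24 NTC and catalytic factors 6 were lower and 11 higher in 786-O-derived cells, and 8 and 13 in OS-LM1 cells, with SYF2 higher in both (1.19 and 1.13), DHX16 lower in 786-O-derived cells (-1.80) and DHX38 lower in OS-LM1 cells (-1.30). Of 19 factors of the 3′ splice site and U1, 9 were lower and 6 higher, and 10 and 4, with U2AF1 at -1.37 in 786-O-derived cells, U2AF2 at -1.15 and RBM10 at -1.48 in OS-LM1, and RBM39 higher in both (1.33 and 0.55).

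Of 27 other splicing regulators tested, 17 were lower and 6 higher in 786-O-derived cells and 13 and 9 in OS-LM1 cells. The paraspeckle protein SFPQ fell in 786-O-derived cells (-1.72) and its partner NONO in OS-LM1 cells (-1.11), PTBP1 fell in OS-LM1 (-1.25) where its paralogue PTBP3 rose (1.34), and MBNL2 rose in 786-O-derived cells (2.24) and MBNL1 in OS-LM1 cells (1.33). Of 7 SR protein kinases 6 were higher and 1 lower in 786-O-derived cells and 3 and 3 in OS-LM1 cells. SRPK1, which phosphorylates SR proteins in the cytoplasm, fell in both (-0.46 and -0.68). CLK4 rose in 786-O-derived cells (1.09) and CLK2 fell in OS-LM1 cells (-0.99).

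The SMN and PRMT5 machinery loads Sm proteins onto the small RNAs. Of 12 of its genes tested, 7 were lower and 4 higher in 786-O-derived cells and 8 and 2 in OS-LM1 cells. WDR77, the partner of PRMT5, fell in 786-O-derived cells (-2.61), GEMIN7 fell in both lines (-1.08 and -1.20), and GEMIN2 rose in 786-O-derived cells (0.60) and fell in OS-LM1 cells (-1.24). Of 25 exon junction and export genes 6 were lower and 7 higher, and 10 and 3. ALYREF, the export adaptor that works with the DDX39 helicases, fell in 786-O-derived cells (-1.42), and THOC3 fell in OS-LM1 cells (-2.41).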

How the data were processed

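Poly(A) RNA from the 24 libraries was sequenced by the authors, who mapped reads to GRCh38 (hg38) with Bowtie2 and RSEM, as named in their processing notes; versions and annotation release are not given in the sources used here. The labels name a stranded KAPA kit and the paper's methods Lexogen kits. The deposited tables hold RSEM expected counts, without normalization, and the authors' TPM per gene, with an abundance-weighted length. The authors' FPKM values, deposited beside them, were not used. Expected counts were rounded. Genes were filtered with filterByExpr, scaled by TMM and compared with the robust quasi-likelihood test of edgeR 4.0.16 (R 4.3.3) with Benjamini-Hochberg adjustment, in 1 fit of 12 libraries per line, and in 1 fit of all 24 for the line difference and the interaction. Lengths were compared on the log2 scale with limma 3.58.1. DESeq2 1.42.0 was an alternative.

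The members and lists were chosen with earlier results of these data known. Named were PAX8, LSM4, DDX39A, DDX39B, the LSM1 to LSM8 and Sm ring genes and, at an average log2 CPM of at least 3, the called members with the largest changes each way: 6 per averaged contrast, 4 between constructs, 5 between lines, 5 for the interaction and 3 for length; of each other list, the 2 largest. Others are named as chosen after their values were seen, or only counted. Tested on simulated data, the count test recovered 83% of genes changed 2-fold in 786-O-derived cells and 82% in OS-LM1 cells. No replicate pair differed by as little as sampling noise. Promoters came from RefSeq (GRCh38.p14). GC content was that of the longest GENCODE transcript of each gene symbol. It was found for 96.25% of genes tested in 786-O-derived cells and 96.09% in OS-LM1 cells. Alternatives were other scaling, filter, test, threshold, samples in the fit, a replicate block, GC trend removal and leaving out each library, and 2 more were added after the data were seen, on the length interaction and on the split within 786-O-derived shPAX8-1. For 6 members some transcripts carry names of alternative locus copies. 1 member that the rule would name is not reported here, though it is in the counts over all members.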

Additional observations from a re-analysis of the deposited data

Results flagged for a closer look

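In 18 of 270 groups of 4 libraries checked (6.67%) the highest or lowest library stood apart from the other 3 by Dixon's criterion, which chance alone meets in about 1 of 20 groups. Of these, 5 fell on OS-LM1 shPAX8-1 replicate 3 and 3 on 786-O-derived sgNTC18 replicate 1. OS-LM1 shPAX8-1 replicate 3 was the highest library of its group for HNRNPA1P10 (131 CPM, the others 6.82 to 23.7), HNRNPD (112 CPM, the others 86.4 to 88.3), LSM1 (19.3 CPM, the others 15.6 to 15.97), LSM6 (15.8 CPM, the others 8.94 to 9.33) and SNRPA1 (101 CPM, the others 59.9 to 66.5). 786-O-derived sgNTC18 replicate 1 was the lowest library of its group for SNRPA (106 CPM, the others 123 to 127), SNRPB (183 CPM, the others 239.5 to 247) and SNRPC (95.8 CPM, the others 121 to 123). 786-O-derived sgNTC18 replicate 2 was the extreme library of its group for SNRPB2 (18.8 CPM, the others 24.6 to 25.4) as the lowest and SRSF4 (101 CPM, the others 94.0 to 95.1) as the highest. 786-O-derived shPAX8-2 replicate 4 was the highest library of its group for LSM4 (59.0 CPM, the others 42.6 to 43.99) and SRSF2 (180.3 CPM, the others 163 to 165). OS-LM1 shPAX8-2 replicate 2 was the highest library of its group for LSM11 (16.1 CPM, the others 12.1 to 12.8). 786-O-derived shPAX8-1 replicate 3 was the lowest library of its group for SF3B4 (52.8 CPM, the others 56.4 to 57.0). 786-O-derived shPAX8-2 replicate 3 was the lowest library of its group for PRPF31 (12.4 CPM, the others 14.8 to 14.9). OS-LM1 sgNTC18 replicate 2 was the highest library of its group for HNRNPUL2 (44.8 CPM, the others 41.3 to 41.5). OS-LM1 sgNTC18 replicate 4 was the highest library of its group for LSM6 (10.3 CPM, the others 8.39 to 8.52). OS-LM1 shPAX8-2 replicate 3 was the lowest library of its group for SRSF3 (272 CPM, the others 319 to 328). 

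Over all genes tested, 58.7% were called for the interaction of line and depletion, and 47 of 84 members were. Some named genes were chosen for the size of this interaction, so their calls were set by that choice. By edgeR's interaction test the change with shPAX8 differed between the lines for 29 of 43 named genes, LSM4 and DDX39A left out. As the OS-LM1 change minus the 786-O-derived change on the log2 scale, it was negative for LSM2 (-1.23), SNRPD2 (-1.11), HNRNPH3 (-0.98), LSM7 (-0.92), SNRPA (-0.87), SRSF4 (-0.79), LSM6 (-0.68), HNRNPUL2 (-0.65), LSM8 (-0.54), DDX39B (-0.49), LSM11 (-0.49) and LSM14B (-0.38). It was positive for PAX8 (1.87), HNRNPD (1.69), HNRNPM (1.49), SRSF3 (1.28), HNRNPU (1.26), SF3B4 (1.24), SRSF2 (1.22), HNRNPAB (0.84), SNRPB (0.84), SRSF6 (0.82), LSM10 (0.64), PRPF4 (0.61), SNRPF (0.61), LSM12 (0.54), SNRPD1 (0.52), SNRPN (0.39) and SNRPC (0.39).

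The change in abundance-weighted transcript length differed between the lines for 6 of 10 named genes, a comparison added after the lengths of SRSF2 and SRSF6 were seen. These genes were chosen for the largest called length changes each way in a line, a choice that favours a difference between lines. On the log2 scale the differences were HNRNPAB (-0.067), HNRNPM (0.017), SRSF1 (0.14), SRSF2 (-0.24), SRSF3 (-0.085) and SRSF6 (-0.061). Over all members 16 of 45 differed, beside 15.5% of all genes. Their causes were not tested.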

How the results depend on the processing

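Of 1380 fits that left out 1 library for 95 single-gene results, 53 changed a call or direction, in 14 of the results, and of 842 other alternatives 82 did. Leaving out 1 library kept every count of calls within 1.5 times, except for the length calls between constructs in 786-O-derived cells (0 to 1), which were also 2 with at least 100 counts in every library and 0 with the replicate block. Only members were counted under these alternatives, so no share of all genes stands beside the counts. With an adjusted p under 0.01, members called between constructs numbered 19 in 786-O-derived cells and 9 in OS-LM1 cells. When an absolute log2 fold change over 0.58 was required beside the adjusted p under 0.05, calls numbered 27 for both constructs and 28 for each in OS-LM1 cells, 13 (12 higher) and 4 between constructs in 786-O-derived and OS-LM1 cells, 25 between lines, 29 for the interaction and 17 in both lines (16 lower). With shPAX8-1 replicates 1 and 2 alone 12 members were called between constructs in 786-O-derived cells, and with replicates 3 and 4 alone 47. SNRPD1 in OS-LM1 cells, near 0, turned to 0.0011 with DESeq2's size factors, 0.0011 with DESeq2 and 0.0095 in 1 fit of all libraries, and ran from -0.054 to 0.053 when 1 library was left out, and LSM6 there from -0.010 to 0.21. With the GC trend removed, values turned to -0.025 (LSM3 in 786-O-derived cells), -0.14 (LSM6), 0.069 (LSM7), -0.21 (LSM8) and 0.075 (SNRPD2) in OS-LM1, and 0.18 (SF3A2 between constructs in 786-O-derived cells). With the replicate block added these were -0.079, -0.16, 0.065, -0.21, 0.077 and 0.18. In 786-O-derived cells LSM3 was -0.21 with shPAX8-1 replicates 1 and 2 alone, and LSM5 0.031 and SNRPF 0.016 with replicates 3 and 4 alone. Summed levels in TPM in place of CPM gave log2 ratios of -0.79 (DDX39), -0.96 (HNRNP), -0.30 (PRPF), -0.057 (SF3) and -0.61 (SRSF) in 786-O-derived cells, and -0.74 (DDX39), -0.56 (LSM), -0.18 (PRPF) and 0.21 (SF3) in OS-LM1 cells. The cause of these changes was not tested. Labels share replicate numbers, but residuals of same-numbered libraries correlated at 0.0067 on average (-0.39 to 0.35), so the numbers were not taken as pairs. That average pools both lines. Between the constructs, replicates 1 to 4 correlated at 0.27, 0.20, 0.35 and 0.045 in 786-O-derived cells and at -0.087, -0.16, -0.21 and 0.12 in OS-LM1 cells. Different numbers ran from -0.45 to 0.39 between the constructs in 786-O-derived cells. The block gave 59 calls in 786-O-derived cells and 57 in OS-LM1 cells against 57 and 59, and changed 6 of 110 results. The effective length equals the length in every row and gave no further alternative. At this depth, 44% (786-O-derived cells) and 63% (OS-LM1) of simulated 1.5-fold changes were recovered.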

Other observations

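Several members outside the naming rule, chosen after their values were seen, also moved. HNRNPL, an hnRNP that binds CA repeats, was at 393 ± 13.4 CPM with sgNTC18, 192 ± 8.41 with shPAX8-1 and 134 ± 6.75 with shPAX8-2 (SD, n = 4) in 786-O-derived cells and at 515 ± 45.5, 226 ± 18.8 and 245 ± 13.6 CPM in OS-LM1 cells, with changes of -1.27 (SE 0.066, adjusted p = 3.6e-10) and -1.14 (SE 0.070, adjusted p = 2.2e-11) by edgeR. PRPF19, the ubiquitin ligase of the NTC complex, changed by -1.27 (SE 0.088, adjusted p = 7.1e-09) and -0.60 (SE 0.067, adjusted p = 1.2e-07). SRSF9 changed by -0.84 (SE 0.085) and -0.81 (SE 0.11), and HNRNPF by -1.004 (SE 0.084) and -0.66 (SE 0.093). SRSF7 changed by -0.12 (SE 0.11, adjusted p = 0.36) in 786-O-derived cells and 0.57 (SE 0.080, adjusted p = 2.9e-06) in OS-LM1 cells.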
